A study of Mus musculus with 18 samples.

Results

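Lipid droplet coat and growth genes were compared between livers of wild-type (WT) and *Gpr180*KO mice fed a high-fat diet (HFD). These genes were picked by name, as the 10 symbols *Plin2*, *Plin3*, *Plin4*, *Plin5*, *Cidea*, *Cideb*, *Cidec*, *Fitm2*, *G0s2* and *Hsd17b13*, out of 23352 gene symbols measured. Each of the 10 had 1 entry in every table, none had a failed estimate, and all 10 passed the filter on low values. The livers came from 18 male mice 20 weeks of age, 9 WT and 9 *Gpr180*KO, with 1 polyA RNA library per mouse. The *Gpr180*KO mice were homozygous, in all organs, for a deletion of exon 6 made by genome editing and predicted to shift the reading frame, and WT controls came from matings of heterozygous carriers. All mice of both genotypes received HFD, and animals on normal diet were not analysed here. The sample titles followed 2 styles, with the mouse number before the diet (title style 1, 4 livers per genotype) or after it (title style 2, 5 livers per genotype). What separates the styles is not stated in the labels, and they were treated as a possible batch.

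A lipid droplet is a core of neutral lipid under a single phospholipid layer, and it is the place where a fatty liver keeps its triglyceride. Droplets bud from the endoplasmic reticulum with the help of FIT proteins, grow when CIDE proteins pass lipid from a smaller to a larger droplet, and are covered by perilipins, which limit the access of lipases. The amount of droplet protein in hepatocytes is known to follow both transcription and the amount of stored lipid, since perilipin 2 is degraded when it has no droplet to bind.

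Of the 10 droplet genes, *Hsd17b13* alone was called different between the genotypes when all 18 livers were compared. It was lower in *Gpr180*KO livers, at 68.8% of the WT mean. For *Cidec*, *Fitm2* and *Plin3* the *Gpr180*KO mean was 60.8%, 74.8% and 76.2% of the WT mean, but none of the 3 passed the test over all livers. *Plin2*, the highest of the group by mean FPKM, stood at 85.7% of WT. *Plin5*, *Cideb* and *G0s2* stood at 98.6%, 96.2% and 96.3%, and none of these genes passed the threshold. *Cidea* and *Cidec* varied widely among livers of 1 genotype, and *Cidec* ran from 1.648 to 59.1 FPKM in *Gpr180*KO livers.

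Levels are given as FPKM, in which the fragments of a gene are scaled by the length of its exons and by the size of the library, so they are per length. They were tested with limma on log2(FPKM + 0.1) over the 10835 genes with a mean of at least 1 FPKM, with Benjamini-Hochberg adjustment over all of them and a threshold of 0.05. Fold changes are given on this scale as *Gpr180*KO minus WT, and they understate the change of genes with low FPKM. In *Gpr180*KO livers, 4.28% of all genes were called lower and 0.452% higher, and 1 of the 10 droplet genes was called lower and 0 higher. The median log2 fold change was -0.45 over the droplet genes and -0.13 over all genes tested. Median-of-ratios scaling between libraries moved these medians to -0.32 and -0.01, and the shares of all genes called to 1.58% lower and 1.03% higher, with *Hsd17b13* again the single droplet gene called. *Gpr180* itself stood at 6.79 ± 1.99 FPKM in WT livers and at 1.60 ± 0.371 FPKM in those of *Gpr180*KO mice (SD, n = 9 each), with all 9 *Gpr180*KO livers below the lowest WT liver. The mean in *Gpr180*KO livers was 23.6% of WT, from a transcript that the deletion shortens. FPKM summed to between 554796 and 718746 per library. The methods give only a rough read number per sample and the tables held no counts, so the number of reads behind each value is unknown. In bulk liver, fewer cells of a type and less RNA per cell cannot be told apart.

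The *Gpr180*KO liver KO51 stood apart from the other 17. Relative to the mean of all livers, the median of its genes with long transcripts (at least 4632 bases) was 1.35 log2 units below that of genes with short transcripts (at most 2053 bases). In the other livers this difference lay between -0.06 and 0.20. KO51 also had the highest FPKM sum. The longest annotated transcript is 5756 bases for *Plin4*, 3967 for *Fitm2* and 3645 for *Plin3*, and between 871 and 1986 bases for the other droplet genes. Results without KO51 are therefore given beside those that moved.

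*Hsd17b13* encodes a hydroxysteroid 17-beta dehydrogenase family enzyme that sits on droplets of hepatocytes. The gene lies on chromosome 5 of mm10, from 103955442 to 103977388 on the minus strand. In WT livers it ranged from 398 FPKM (W157) through a median of 548 to 684 FPKM (W133), and in *Gpr180*KO livers from 277 FPKM (KO52) through 354 to 492 FPKM (KO56). The genotypes overlapped in part: 6 of the 9 *Gpr180*KO livers were below the lowest WT liver, all 9 were below the WT median, and 7 WT livers were above the highest *Gpr180*KO liver. The means were 534 ± 81.3 FPKM in WT and 368 ± 64.3 FPKM in *Gpr180*KO livers (SD, n = 9 each). The log2 fold change was -0.54 (standard error 0.11, limma adjusted p = 0.0154).

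The *Hsd17b13* difference had nearly the same size in both title styles. In title style 1 alone, where 5.29% of all genes were called lower, the log2 fold change was -0.52 (limma adjusted p = 0.0257), and the 4 WT livers, at 449.5 to 560.5 FPKM, all lay above the 4 *Gpr180*KO livers, at 300.5 to 404 FPKM. Among all genes tested, 11.5% had every *Gpr180*KO liver below every WT liver in title style 1. In title style 2 it was -0.56 and did not pass the threshold (limma adjusted p = 0.154), with WT livers at 398 to 684 FPKM and *Gpr180*KO livers at 277 to 492 FPKM. Title style 2 alone called 1 of all genes lower (0.00932%) and 0 higher with limma, while 1936 had an unadjusted p under 0.05, and without KO51 it called 2.56% lower. Median-of-ratios scaling gave -0.42 (limma adjusted p = 0.0452), and leaving out KO51 gave -0.54 (limma adjusted p = 0.0153). *Hsd17b13* was also the droplet gene with a positive difference between the title styles, 0.08 log2 units higher in style 2 (limma adjusted p = 0.631).

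Promoter sequence was examined for the single gene called different (*Hsd17b13*), for the most abundant droplet coat gene (*Plin2*) and for the gene with the largest highest-to-lowest ratio among those above 0 in every liver (*Cidec*). The 250 bases before the start of each gene are shown 5′ to 3′ along the gene's strand, from RefSeq on GRCm38.p6, with matches to AGGTCA on either strand in capitals. AGGTCA is the half-site bound by many nuclear receptors. The windows are chr5:103977389-103977638 for *Hsd17b13*, chr4:86670060-86670309 for *Plin2* and chr6:113435761-113436010 for *Cidec*, all on the minus strand. *Cidec* had a second window, chr6:113434765-113435014, which held no AGGTCA and is not shown. Which start was used in these livers was not tested.
Hsd17b13: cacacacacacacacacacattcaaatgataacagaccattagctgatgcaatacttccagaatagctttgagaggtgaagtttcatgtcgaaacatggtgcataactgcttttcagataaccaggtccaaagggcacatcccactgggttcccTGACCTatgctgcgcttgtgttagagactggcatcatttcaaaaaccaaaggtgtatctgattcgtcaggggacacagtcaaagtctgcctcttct
Plin2: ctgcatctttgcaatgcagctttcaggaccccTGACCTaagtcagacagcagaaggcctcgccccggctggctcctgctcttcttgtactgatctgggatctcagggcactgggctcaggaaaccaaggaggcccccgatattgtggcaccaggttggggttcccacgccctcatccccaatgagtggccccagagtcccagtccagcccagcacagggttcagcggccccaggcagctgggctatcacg
Cidec: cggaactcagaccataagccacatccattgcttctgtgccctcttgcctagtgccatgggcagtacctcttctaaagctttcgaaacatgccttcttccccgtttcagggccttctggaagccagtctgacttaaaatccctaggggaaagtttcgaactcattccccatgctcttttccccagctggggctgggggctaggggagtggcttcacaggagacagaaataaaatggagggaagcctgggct
Of the 9 droplet genes with a window in the table, *Hsd17b13*, *Plin2* and *Plin5* held AGGTCA, as did 14.0% of 32851 windows of this length. That share is per window and not per gene, and *Plin5*, like *Cidec*, had 2 windows, of which 1 held the match in *Plin5*. The direct repeat AGGTCANAGGTCA (0.0335% of windows), the E-box CACGTG (6.02%) and the sterol element TCACNCCAC (1.05%), each searched on both strands, were in no window of the 9. The direct repeat contains AGGTCA, so these motifs are not separate. A match is a string of letters and not a measured binding site.

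**Figure D1:**
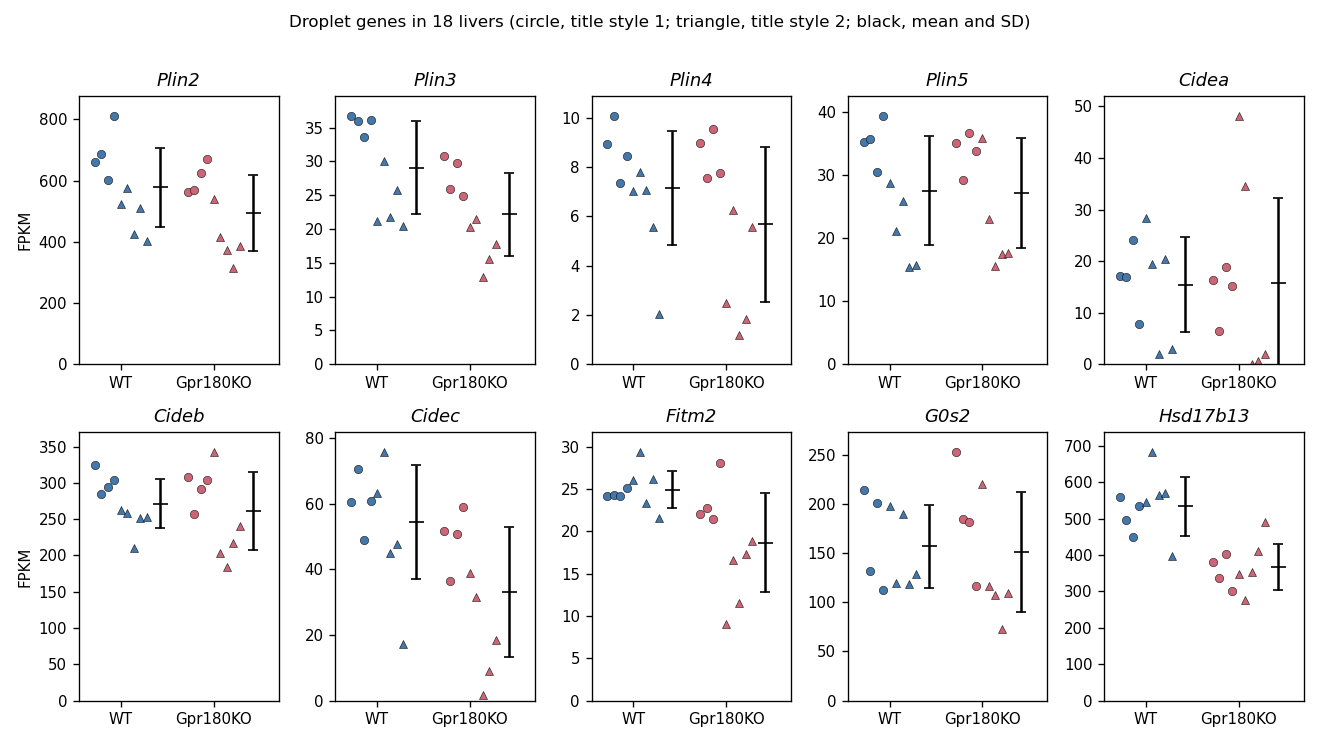
FPKM of the 10 droplet genes in each of 9 WT (blue) and 9 *Gpr180*KO (red) livers, with title style 1 as circles, title style 2 as triangles, and the mean and SD of each genotype in black (the lower bar of *Cidea* in *Gpr180*KO livers is cropped at 0). *Hsd17b13* is shifted down in both styles, while *Plin2*, *Plin3* and *Plin5* separate mainly by title style.

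The perilipins *Plin2*, *Plin3*, *Plin4* and *Plin5* coat the droplet surface. *Plin2* is the general coat protein of hepatocyte droplets, *Plin3* is a cytosolic protein that moves onto new droplets, *Plin4* belongs mainly to fat cells, and *Plin5* is the coat protein of tissues that burn fat and tethers droplets to mitochondria. *Plin1*, the perilipin of mature adipocytes, was listed at 0 in all 18 livers. On mm10 the genes are at chr4:86656565-86670059 (*Plin2*), chr17:56278962-56290511 (*Plin3*), chr17:56100591-56109802 (*Plin4*) and chr17:56111601-56117548 (*Plin5*), all on the minus strand. *Plin4* and *Plin5* are neighbours on chromosome 17 with 1799 bases between them, and *Plin4* overlaps *Hdgfrp2*. Strandedness of the counting is not stated, so reads of overlapping genes could not be told apart. Of the 4 measured coat genes, 0 were called in either direction over all livers.

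*Plin2* ranged from 403 to 812 FPKM in WT livers (median 577) and from 316 to 670 FPKM in *Gpr180*KO livers (median 539.7). The ranges overlapped over most of their length, with 3 *Gpr180*KO livers below the lowest WT liver. The log2 fold change was -0.23 (95% interval -0.56 to 0.09, limma adjusted p = 0.385). *Plin5* ranged from 15.5 to 39.3 FPKM in WT livers and from 15.6 to 36.6 FPKM in *Gpr180*KO livers, with medians of 28.7 and 29.1 FPKM. Its log2 fold change was -0.02 (95% interval -0.47 to 0.43, limma adjusted p = 0.958), and its sign turned under median-of-ratios scaling (0.10).

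*Plin3* ranged from 20.4 to 36.7 FPKM in WT livers (median 30.1) and from 13.0 to 30.8 FPKM in *Gpr180*KO livers (median 21.5). Of the *Gpr180*KO livers, 8 lay below the WT median. The log2 fold change was -0.41 (standard error 0.17, limma adjusted p = 0.170). Within title style 1 the genotypes did not overlap for *Plin3*: the WT livers were at 33.6 to 36.7 FPKM and the *Gpr180*KO livers at 24.9 to 30.8 FPKM, a log2 fold change of -0.36 (limma adjusted p = 0.0319). Such a separation in title style 1 was found in 11.5% of all genes tested, and 5.29% of all genes were called lower there. In title style 2 the fold change of *Plin3* was -0.44 (limma adjusted p = 0.199), with overlapping livers.

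*Plin4* was the least abundant droplet gene, at 7.15 ± 2.30 FPKM in WT and 5.68 ± 3.15 FPKM in *Gpr180*KO livers (SD, n = 9 each). Its WT livers ranged from 2.06 FPKM (W157) through 7.36 to 10.1 FPKM, and its *Gpr180*KO livers from 1.18 FPKM (KO53) through 6.26 to 9.54 FPKM. The low livers came from both genotypes, since KO54 (1.84 FPKM), W157 and KO51 (2.47 FPKM) followed KO53. The log2 fold change was -0.51 (95% interval -1.30 to 0.29, limma adjusted p = 0.434), and it was -0.04 in title style 1 and -0.88 in title style 2. Without KO53 the fold change over all livers was -0.27 (limma adjusted p = 0.645), and without KO51 it was -0.40 (limma adjusted p = 0.569).

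The CIDE proteins act at contacts between droplets. *Cidec* (FSP27 in mouse) and *Cidea* are fat-cell genes that rise in steatotic liver, while *Cideb* is the family member of normal hepatocytes and also takes part in the lipidation of lipoproteins. *Cidec* is at chr6:113424636-113435755 and *Cideb* at chr14:55754055-55758424, both on the minus strand. *Cidec* had 17.1 FPKM (W157) at the lowest, 60.4 at the median and 75.8 FPKM (W133) at the highest in WT livers. In *Gpr180*KO livers it ran from 1.648 FPKM (KO53) through 36.5 to 59.1 FPKM (KO322). All 9 *Gpr180*KO livers were below the WT median, but 2 alone were below the lowest WT liver. The log2 fold change was -1.12 (standard error 0.53, 95% interval -2.23 to -0.02), and it did not pass the threshold after adjustment (limma adjusted p = 0.217).

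The *Cidec* difference was larger in title style 2 and rested in part on KO53, without which it was -0.655 over all livers (limma adjusted p = 0.289). In title style 2 the log2 fold change was -1.79 (limma adjusted p = 0.241), with *Gpr180*KO livers at 1.648 to 38.9 FPKM and WT livers at 17.1 to 75.8 FPKM. In title style 1 it was -0.29 (limma adjusted p = 0.275), with 36.5 to 59.1 FPKM against 49.1 to 70.5 FPKM. The difference between the styles, -1.50 log2 units, did not pass the interaction test (limma adjusted p = 0.727).

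*Cidea* was the most variable droplet gene. In WT livers it ranged from 1.96 FPKM (W134) through 17.1 to 28.4 FPKM (W131). In *Gpr180*KO livers it was listed at 0 in KO53, was 0.609 FPKM in KO54 and 2.07 FPKM in KO56, and reached 34.6 FPKM in KO52 and 48.2 FPKM in KO51. The 4 *Gpr180*KO livers of title style 1 lay between 6.44 and 18.9 FPKM. The *Gpr180*KO livers of title style 2 were thus both the lowest and the highest of all 18, and the log2 fold change of -0.995 had a 95% interval of -3.02 to 1.03 (limma adjusted p = 0.551). Without KO53 it was -0.26 (limma adjusted p = 0.852) and without KO51 -1.38 (limma adjusted p = 0.402). *Cidea* overlaps the antisense entry *B430212C06Rik*, and the sequence of its promoter is not shown.

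*Cideb*, in contrast, was steady. It had 271 ± 34.2 FPKM in WT and 261 ± 53.8 FPKM in *Gpr180*KO livers (SD, n = 9 each), with ranges of 210.1 to 324 FPKM (median 262) and 184 to 342.5 FPKM (median 257). Its log2 fold change was -0.07 (95% interval -0.32 to 0.17, limma adjusted p = 0.718), and 0.05 under median-of-ratios scaling. *Cideb* overlaps *Nop9* on the other strand.

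*Fitm2* encodes an endoplasmic reticulum protein needed for droplet budding, at chr2:163468703-163472629 on the minus strand. In WT livers it held a narrow range, from 21.6 through 24.3 to 29.4 FPKM, while in *Gpr180*KO livers it ran from 9.07 FPKM (KO51) through 18.9 to 28.1 FPKM (KO322). Of the *Gpr180*KO livers, 6 were below the lowest WT liver, and 1 WT liver was above the highest *Gpr180*KO liver. The log2 fold change was -0.49 (standard error 0.16, limma adjusted p = 0.0862), and without KO51 it was -0.37 (limma adjusted p = 0.0845). *Fitm2* overlaps *2310001K24Rik* on the other strand.

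The *Fitm2* values differed by genotype mainly in title style 2. There the WT livers were at 21.6 to 29.4 FPKM and the *Gpr180*KO livers at 9.07 to 18.9 FPKM with no overlap, a log2 fold change of -0.83 (limma adjusted p = 0.0937). In title style 2, 5.5% of all genes tested had every *Gpr180*KO liver below every WT liver. Without KO51 the fold change within style 2 was -0.67 (limma adjusted p = 0.0435). In title style 1 it was -0.06 (limma adjusted p = 0.704). The difference between the styles was -0.77 log2 units (interaction, unadjusted p = 0.00538, limma adjusted p = 0.581). Over all genes tested the interaction called 0 genes (0%) with limma, and 833 genes had an unadjusted p under 0.05. Without KO51 the *Fitm2* interaction was -0.61 (limma adjusted p = 0.214).

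*G0s2* encodes an inhibitor of adipose triglyceride lipase, the enzyme that starts the breakdown of droplet triglyceride, and is at chr1:193272160-193273188 on the minus strand. Its WT livers ranged from 112 to 214 FPKM (median 131.5) and its *Gpr180*KO livers from 72.4 to 253 FPKM (median 116). The *Gpr180*KO range enclosed the WT range, and the log2 fold change was -0.11 (95% interval -0.56 to 0.34, limma adjusted p = 0.772). It was 0.16 in title style 1 and -0.33 in title style 2.

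**Figure D2:**
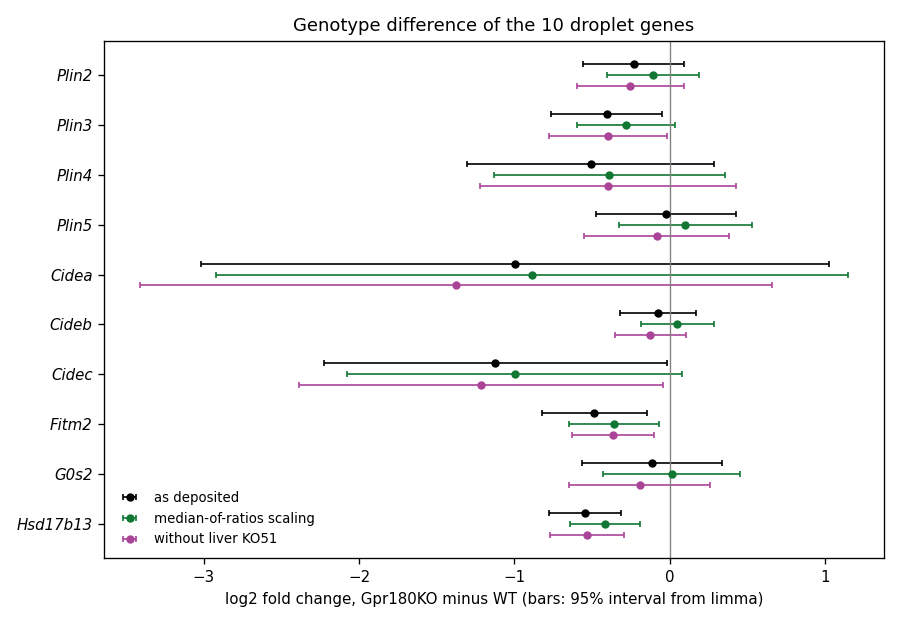
Log2 fold change (*Gpr180*KO minus WT, on log2(FPKM + 0.1)) of the 10 droplet genes with 95% intervals from limma, as deposited (black), after median-of-ratios scaling (green) and without liver KO51 (purple). The intervals of *Hsd17b13* and *Fitm2* stay below 0 in all 3, and the interval of *Cidea* as deposited spans -3.02 to 1.03.

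The title styles separated the perilipins more clearly than the genotypes did. With genotype in the model, 5 of the 10 droplet genes were called lower in title style 2 than in title style 1 and 0 higher, where 19.1% of all genes tested were called lower and 3.78% higher. The 5 were all 4 measured perilipins and *Cideb*. *Plin2* was lower by a log2 difference of -0.55 (limma adjusted p = 0.000942), *Plin3* by -0.63 (limma adjusted p = 0.000414), *Plin5* by -0.72 (limma adjusted p = 0.00252) and *Plin4* by -1.10 (limma adjusted p = 0.0139). In WT livers alone, mean *Plin2* was 690.0 FPKM in style 1 and 488.5 FPKM in style 2, and the lowest of the 4 livers of style 1 (601 FPKM) lay above the highest of the 5 of style 2 (577 FPKM). The same held for *Plin3* (33.6 against 30.1 FPKM), *Plin5* (30.4 against 28.7 FPKM) and *Cideb* (285 against 262 FPKM). Among all genes tested, 13.2% had every WT liver of style 2 below every WT liver of style 1. *Cideb* was lower by -0.31 (limma adjusted p = 0.0267), a call that median-of-ratios scaling ended (limma adjusted p = 0.198) and that was also lost without W317 or KO319. The 4 perilipins kept theirs under that scaling, with limma adjusted p from 0.00157 to 0.0233, where 9.04% of all genes were called lower and 8.03% higher. Without KO51 the same 5 genes and *Cidec* (-1.32, limma adjusted p = 0.0349) were called lower in title style 2, and 30.3% of all genes were.

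With title style as a block in the genotype comparison, 9.52% of all genes were called lower in *Gpr180*KO livers, and 3 of the 10 droplet genes were. These were *Hsd17b13* (limma adjusted p = 0.00687), *Plin3* (limma adjusted p = 0.0135) and *Fitm2* (limma adjusted p = 0.0402). Without KO51 the blocked comparison added *Plin2*, at a log2 fold change of -0.29 (limma adjusted p = 0.0258), while 16.2% of all genes were called lower. Under both median-of-ratios scaling and the block, *Hsd17b13* alone was called (limma adjusted p = 0.0199), with *Plin3* at 0.0833 and *Fitm2* at 0.109.

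**Figure D3:**
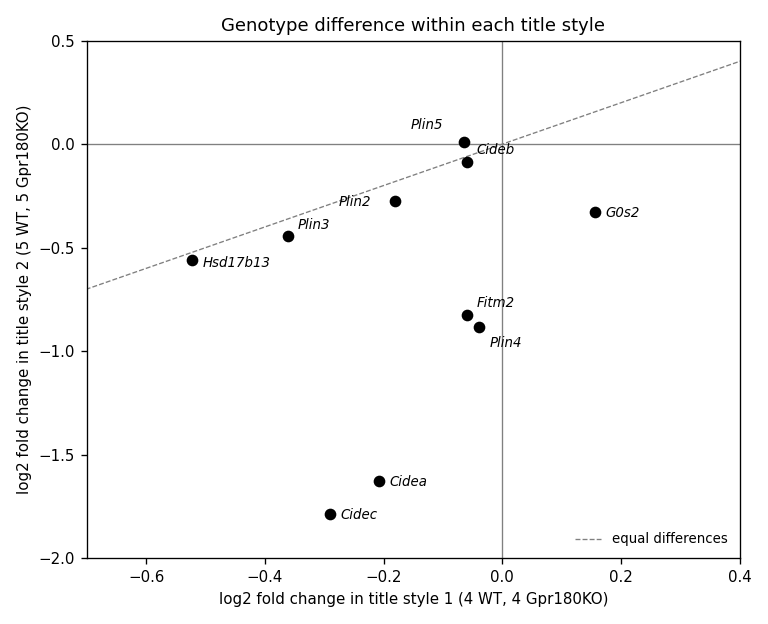
Log2 fold change (*Gpr180*KO minus WT) of the 10 droplet genes in title style 1 (x axis, 4 livers per genotype) against title style 2 (y axis, 5 livers per genotype), with equal differences on the dashed line. *Hsd17b13*, *Plin2*, *Plin3*, *Plin5* and *Cideb* lie near the line, and *Cidec*, *Cidea*, *Plin4*, *Fitm2* and *G0s2* lie below it. None of these differences passed the adjusted interaction test.

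In WT livers the mean levels ran from *Plin2* (578 ± 130 FPKM) and *Hsd17b13* (534 ± 81.3 FPKM) through *Cideb* (271 FPKM), *G0s2*, *Cidec* (54.4 FPKM), *Plin3* (29.1 FPKM), *Plin5* (27.5 FPKM), *Fitm2* (24.9 FPKM) and *Cidea* (15.4 FPKM) to *Plin4* (7.15 FPKM). Some steps of this order were clear in single livers and others were not. *Cideb* exceeded *G0s2*, and *G0s2* exceeded *Cidec*, in all 18 livers. *Plin2* exceeded *Hsd17b13* in 5 of 9 WT and 7 of 9 *Gpr180*KO livers. The FPKM of *Plin2* was 1.11 times the midpoint of the interval given beside it, and that of *Hsd17b13* 0.988 to 0.996 times. The order of these genes by midpoint was not computed. *Plin3* exceeded *Plin5* in 6 of 9 WT livers but in 1 of 9 *Gpr180*KO livers. The means of *Plin3*, *Plin5* and *Fitm2* in WT livers differed by less than the SD of *Plin3* or of *Plin5*.

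The spread between livers of one genotype differed widely among the droplet genes. In WT livers the coefficient of variation was lowest for *Fitm2* (8.70%), *Cideb* (12.6%) and *Hsd17b13* (15.2%) and highest for *Cidea* (60.0%). In *Gpr180*KO livers it was lowest for *Hsd17b13* (17.5%) and *Cideb* (20.6%) and highest for *Cidea* (104%), *Cidec* (60.2%) and *Plin4* (55.4%). All 10 had a larger coefficient of variation in *Gpr180*KO than in WT livers, with or without KO51. The share of all genes for which this held was not computed, so the count has no background. These coefficients pool the 2 title styles, between which several levels differed. In title style 1 alone the SD was smaller in *Gpr180*KO livers for *Plin2* (50.2 against 88.7 FPKM), *Plin4*, *Plin5*, *Cidea* and *Hsd17b13*. It was larger there for *Plin3*, *Cideb*, *Cidec*, *Fitm2* (3.03 against 0.461 FPKM) and *G0s2*. These SDs are not scaled to the mean. Over all genes tested, the median difference in absolute deviation from the genotype median was 0.05 log2 units, or 0.009 without KO51. The coefficient of variation of *Fitm2* was 31.4% in *Gpr180*KO livers, or 24.9% without KO51. For *Cidec* the highest-to-lowest ratio was 4.43 in WT and 35.8 in *Gpr180*KO livers. None of these differences in spread passed the limma test on deviations from the genotype median, which called 0 of all genes tested (0%), with 323 at an unadjusted p under 0.05. For *Fitm2* the unadjusted p was 0.0182 and the limma adjusted p 0.826.

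Some livers that were low in one of the variable genes were also low in another, mainly in title style 2. After the means of genotype and title style were removed, 45 pairs of droplet genes were compared over 18 livers by two-sided permutation within genotype and title style, and 2 pairs passed the threshold by Pearson's r. For *Cidea* and *Cidec* r was 0.882 (permutation p = 0.0016, adjusted p = 0.036) and rho 0.777 (permutation p = 0.0065, adjusted p = 0.146). Without KO51 and KO53 r was 0.739. It was 0.598 in WT and 0.947 in *Gpr180*KO livers, and 0.340 in title style 1 and 0.901 in title style 2. *Plin3* and *Cidec* had an r of 0.806 (permutation p = 0.0013, adjusted p = 0.036) and a rho of 0.678 (permutation p = 0.0179, adjusted p = 0.164). Their r was 0.718 without W133 and KO53, and 0.259 in title style 1 and 0.855 in title style 2. By rho the single pair past the threshold was *Plin2* with *Cidec*, with a rho of 0.779 (permutation p = 0.0007, adjusted p = 0.0315) and an r of 0.604 (adjusted p = 0.223).

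Which pairs were called depended on the scale and on single livers. With a pseudocount of 1 the adjusted permutation p was 0.0866 for *Cidea* with *Cidec* and 0.0711 for *Plin3* with *Cidec*, and with median-of-ratios scaling it was 0.0715 and 0.0773. Without KO51 neither of the 2 pairs was called (adjusted permutation p = 0.104 for both), and *Plin4* with *Cidec* was the single pair past the threshold (r = 0.918, adjusted permutation p = 0.0081). With all livers that pair had an r of 0.780 (adjusted permutation p = 0.0972). Without KO53 the single pair was *Plin2* with *Cidec* (r = 0.833, adjusted permutation p = 0.0162), and without W157 no pair passed (*Cidea* with *Cidec*, adjusted permutation p = 0.0567). For *Hsd17b13* with *Cidec* r was 0.149 (adjusted permutation p = 0.834), with 0.892 in WT and -0.146 in *Gpr180*KO livers.

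**Figure D4:**
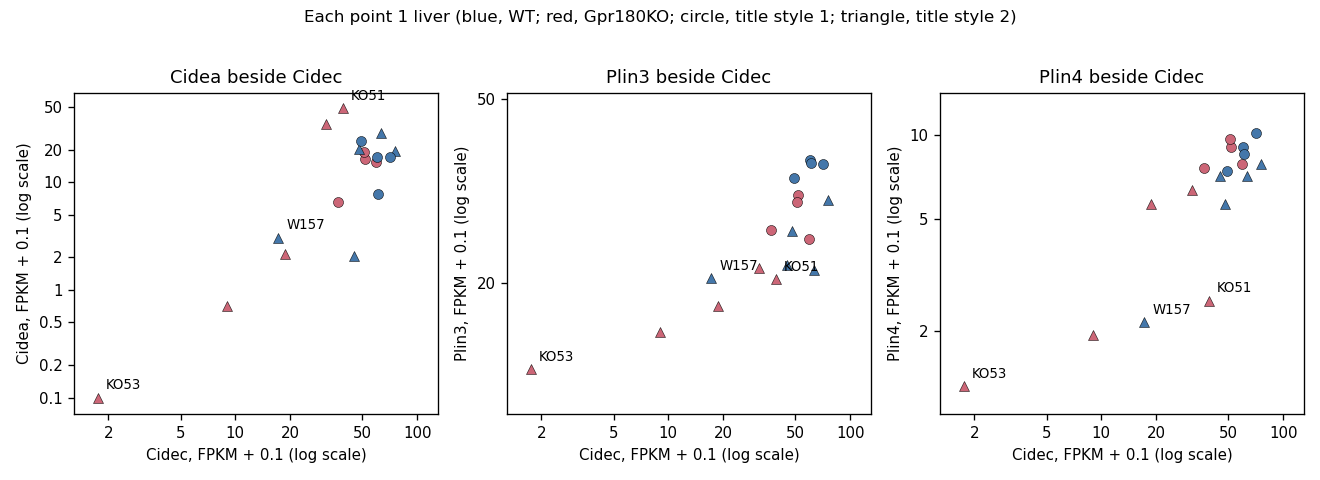
*Cidea*, *Plin3* and *Plin4* (FPKM + 0.1, log scale) against *Cidec* (FPKM + 0.1, log scale), with 1 point per liver (blue, WT; red, *Gpr180*KO; circles, title style 1; triangles, title style 2). KO53 is lowest for all 4 genes, W157 is the WT liver lowest for *Cidec*, *Plin3* and *Plin4*, and KO51 is the highest for *Cidea* but low for *Plin4*.

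The genes whose pattern over the 18 livers was most like that of a droplet gene were found with the same centred values over all genes tested, as a description. *Sema5b* was the closest gene to both *Cidea* (r = 0.941) and *Cidec* (r = 0.939), and *Paqr7* (r = 0.919) and *Fitm1*, the second FIT gene (r = 0.918), followed for *Cidea*. *Rab34* (r = 0.899) and *Lgals1* (r = 0.896) followed for *Cidec*. For *Plin4* the nearest were the collagen genes *Col4a2* (r = 0.913) and *Col6a3* (r = 0.912), and *Gpr124* (r = 0.900). *Plin2* was nearest to *Mnd1* (r = 0.896), *Zfand3* (r = 0.866) and *Minpp1* (r = 0.865), *Plin3* to *Rab3d* (r = 0.920), *Zdhhc8* (r = 0.913) and *Rps6ka1* (r = 0.907), and *Plin5* to *Fam25c* (r = 0.921), *Gfer* (r = 0.919) and *B3gat3* (r = 0.908). *Hsd17b13* was nearest to *Tpm3* (r = 0.947), *Gm3776* (r = 0.883) and *Mcm6* (r = 0.877), none of them a droplet gene. The neighbours of *Cideb* were *Phb2* (r = 0.966), *Mvb12a* (r = 0.957) and *Slc25a39* (r = 0.955), those of *Fitm2* were *Plec* (r = 0.918), *Dock9* (r = 0.900) and *Tram2* (r = 0.898), and those of *G0s2* were *Wdr53* (r = 0.881), *Bysl* (r = 0.827) and *Gm6484* (r = 0.818). Without KO51 the r of *Fitm2* with *Plec* was 0.827 and that of *Cideb* with *Mvb12a* 0.870.

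Among 26 other genes of droplet biology, 25 were tested, and 3 were called lower and 0 higher in *Gpr180*KO livers, with a median log2 fold change of -0.15. Of all genes tested, 4.28% were called lower, or 1.58% after median-of-ratios scaling. *Acsl3*, an acyl-CoA synthetase found on nascent droplets, had 16.4 ± 3.50 FPKM in WT livers against 10.3 ± 2.31 FPKM (SD, n = 9 each), a log2 fold change of -0.67 (limma adjusted p = 0.0162). *Lpin1*, a phosphatidate phosphatase of triglyceride synthesis, had 19.3 ± 4.40 FPKM against 12.2 ± 4.62 FPKM, a log2 fold change of -0.72 (limma adjusted p = 0.0442). *Abhd5*, the activator of adipose triglyceride lipase that perilipins hold back, had 14.0 ± 1.93 FPKM against 11.2 ± 0.990 FPKM, a log2 fold change of -0.32 (limma adjusted p = 0.0366). Median-of-ratios scaling left *Acsl3* alone (limma adjusted p = 0.0415), and without KO51 *Lpin1* had a limma adjusted p of 0.0515. *Pnpla3*, a droplet protein related to that lipase, had the largest fold change, -1.28 (2.94 against 1.27 FPKM), without passing the threshold (limma adjusted p = 0.140).

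Of 16 regulators known to act on droplet genes, *Srebf2*, the sterol-responsive factor, was called lower and 0 were called higher, with a median log2 fold change of -0.07. The share of all genes called lower was 4.28%. The level of *Srebf2* was 14.1 ± 1.46 FPKM in WT livers against 9.93 ± 1.83 FPKM, with a log2 fold change of -0.51 (limma adjusted p = 0.0159). *Pparg*, the nuclear receptor that drives *Cidea*, *Cidec* and *Plin4* in fat cells, had 17.3 ± 5.49 FPKM in WT livers against 12.3 ± 4.17 FPKM, with a log2 fold change of -0.57 (limma adjusted p = 0.253). *Cebpb* stood at -0.46 (limma adjusted p = 0.367) and *Srebf1* at 0.32 (limma adjusted p = 0.138). Several droplet genes respond to fasting and to the time of day. Of 15 fasting and feeding genes, *Elovl6* was called lower (log2 fold change -0.77, limma adjusted p = 0.0147), *Pdk4* (-0.85) and *Fasn* (-0.81) did not pass, and the median was -0.27. The 5 raised by feeding were all lower on average (median -0.79, 1 called), and of the 10 raised by fasting 6 were (median -0.11, 0 called). *Pck1*, at 0.71 (limma adjusted p = 0.0613), was called higher without KO51 (limma adjusted p = 0.0407). Of 14 clock genes 12 were tested and 0 were called by limma, with a median of -0.16 and *Per3* (-0.96), *Per2* (-0.61) and *Per1* (-0.60) as the largest. *Per3* and *Per2* had unadjusted p of 0.0178 and 0.00899 and were the 2 clock genes with an unadjusted p under 0.05.

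Markers of other cells moved with some of these results. Of 10 stellate cell markers 4 were called lower in *Gpr180*KO livers, *Pdgfrb*, *Col1a1*, *Col1a2* and *Col3a1*, where 4.28% of all genes were called lower. The summed level of the list was 32.7 to 133.6 FPKM in WT and 21.9 to 51.4 FPKM in *Gpr180*KO livers. The WT liver with the lowest sum was W157 and the *Gpr180*KO liver with the lowest was KO53, the livers that were lowest in *Plin4* and *Cidec* within their genotypes. Of 10 tested macrophage markers 3 were called lower, *Cd68*, *Gpnmb* and *Trem2*, and the summed level was 184.5 to 488 FPKM in WT and 219.5 to 315 FPKM in *Gpr180*KO livers. Median-of-ratios scaling ended the *Gpnmb* call (limma adjusted p = 0.0525). Their part in the droplet gene results was not tested. Adipocyte markers summed to 40.7 to 82.9 FPKM in WT and 22.5 to 345 FPKM in *Gpr180*KO livers, where the highest sum, in KO51, was mostly *Cfd* (278 FPKM), and 0 of the 2 markers tested were called. KO51 and KO52 had the highest adipocyte sums and the highest *Cidea*, and KO53, with *Cidea* listed at 0, had the lowest sum. Other livers did not follow this order. KO319 and KO321 had the next lowest sums, 30.5 and 34.2 FPKM, with *Cidea* at 16.3 and 18.9 FPKM. W134 had a sum of 51.8 FPKM with *Cidea* at 1.96 FPKM. The part of these markers in the *Cidea* values was not tested. *Plin1* and *Ucp1* were listed at 0 in all 18 livers and *Adipoq* did not exceed 0.0897 FPKM. Hepatocyte markers summed to 17970 to 20980 FPKM in WT and 19370 to 32400 FPKM in *Gpr180*KO livers. The highest of these was KO51, and the next was KO54 at 22500 FPKM. Of the 10, 3 were lower on average (median log2 fold change 0.13), and *Cyp3a11* was called lower and 0 higher. With title style as a block, 122 of the 10835 genes tested were called higher, among them *Serpina1a* (limma adjusted p = 0.0148).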

How the data were processed

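Liver polyA RNA of 18 mice was analysed from FPKM tables deposited by the authors, 1 per mouse. The submitters' processing notes name TopHat and the builds GRCm38 and mm10. The methods state that single reads were mapped to mm10 with Illumina's TopHat Alignment application, whose FPKM output was used, and the gene annotation is not given in the sources used here. Each table had 23847 entries, and FPKM of entries sharing a symbol were summed. There were 190 failed values in 24 genes, which were left out. No counts were used, so the number of reads behind each value is unknown.

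Genotype was taken from the labels. The 10 genes, the lists and the named genes were chosen with earlier results of these data known. Besides the 10, the rule named list genes past the threshold, up to 3 others with the largest fold changes, and the 3 genes most correlated with each. *Srebf1*, *Pck1*, *Plin1*, *Ucp1* and *Adipoq* were named after their values were seen.

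Genotypes were compared in R 4.3.3 by limma 3.58.1 (eBayes with trend), over the 10835 genes with a mean of at least 1 FPKM, on log2(FPKM + 0.1), with Benjamini-Hochberg adjustment. Title style and interaction terms, and absolute deviations from the genotype median, were fitted likewise. Relations used 100000 permutations. In simulated data of 10835 genes, 200 had their mean moved by a set multiple of their SD, or their SD raised by a set factor. Of these, 55.5% were recovered for genotype, 55.5% for the interaction and 39.5% for spread. The false share of the calls was 7.5%, 5.13% and 1.25%. The planted sizes differed between the tests, so these shares are not the power for the differences reported here. Transcript lengths (94.4% of genes matched) came from GENCODE on GRCm38 and promoters from RefSeq on GRCm38.p6. The alternatives were pseudocounts of 1 and 0.01, scaling by median-of-ratios, by the 75th percentile or to TPM, minimums of 0.1 and 5 FPKM or no minimum, title style as a block or alone, each liver left out, and eBayes without trend. Leaving out each liver from the genotype comparison was planned. The title style comparison with its scalings and left-out livers, the interval midpoint, combined scaling and block, pairs without KO51, KO53 or W157, and leaving out KO51 together with a block, a scaling, 1 title style or another model were added after seeing the data. Python 3.11.15 with numpy 2.4.6, pandas 2.3.3, scipy 1.17.1 and matplotlib 3.10.9 was used.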

Additional observations from a re-analysis of the deposited data

Results flagged for a closer look

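The WT liver W157 stood apart from the other WT livers in 2 genes. Its *Cidec* level was 17.09 FPKM and its *Plin4* level 2.057 FPKM, and in each case the gap to the next WT liver was a larger part of the whole WT range than Dixon's test allows at the 95% level, on the log2(FPKM + 0.1) scale. Both genotypes of the 10 droplet genes gave 20 groups examined, 2 of which were marked, and chance alone marks about 1 in 20 groups.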

How the results depend on the processing

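*Hsd17b13* kept its direction under every alternative run and its call under all but title style 2 alone (log2 fold change -0.56, limma adjusted p = 0.154). Leaving out 1 liver gave -0.60 to -0.49. The number of droplet genes called lower, 1 over all livers, was 3 with title style as a block, 2 in title style 1 alone, 0 in title style 2 alone and 1 to 2 with 1 liver left out, the 2 being without KO322, when *Fitm2* was called. For *Plin5* the sign turned under median-of-ratios scaling (0.10, also with the block), 75th percentile scaling (0.093) and in title style 2 alone (0.01), and it ran from -0.117 to 0.067 with 1 liver left out. *Cideb* turned under median-of-ratios (0.05, also with the block) and 75th percentile scaling (0.042). *G0s2* turned under median-of-ratios (0.012, also with the block) and 75th percentile scaling (0.003) and in title style 1 (0.16), and ran from -0.219 to 0.007 with 1 liver left out. Genes of the wider droplet list called lower, 3 over all livers, were 1 under median-of-ratios and 75th percentile scaling, 5 with the block, 0 in title style 2 alone and 1 to 3 with 1 liver left out. Among regulators, title style 1 alone gave 0 lower and 2 higher, and title style 2 alone 0 lower. Among fasting, feeding and clock genes, 1 was called lower over all livers. That was 2 with a minimum of 0.1 FPKM, 3 with the block, 3 in title style 1 alone, 0 in title style 2 alone and 1 to 2 with 1 liver left out. In the higher direction it was 1 with the block, 1 in title style 1 alone and 0 to 1 with 1 liver left out. Of the 2 related pairs, 0 were called with a pseudocount of 1 or median-of-ratios scaling, and 0 to 1 pairs passed without KO51, KO53 or W157. Title style 1 alone called 116 of 10907 genes higher. The block called 122 of 10835 higher and 9.52% lower. Among all genes, title style 1 alone called 5.29% lower and title style 2 alone 1 gene, so counts of 0 in title style 2 say little of the lists. The causes were not tested. No paired analysis was possible because replicate numbers only follow the order of the samples.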

Other observations

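The tables give an interval beside each FPKM, and for some droplet genes the value lay outside its own interval. *G0s2* lay above its interval in all 18 livers, at 1.26 to 1.29 times the midpoint, and *Plin2* in all 18, at 1.11 times the midpoint. *Cidec* was outside in 12 livers and *Cidea* in 9 of the 17 with a value above 0. *Hsd17b13*, *Plin4*, *Plin5*, *Cideb* and *Fitm2* were outside in 0 livers. With the midpoint in place of FPKM, *Hsd17b13* had a limma adjusted p of 0.0147 and no other droplet gene was called. The cause was not tested.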
